A study of Homo sapiens with 18 samples.

Results

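The neutrophil and monocyte chemokines of lung epithelial and lung cancer cells were followed by RNA-seq before and after X-ray irradiation. They are 10 genes, found by symbol through the Entrez identifiers of the table, of 18475 genes in all: CXCL1, CXCL2, CXCL3, CXCL5, CXCL6, CXCL8, CCL2, CCL5, CCL20 and CX3CL1. The cells were BEAS-2B, a line of lung epithelium, H446, a line from small cell lung cancer, and A549, a line from lung adenocarcinoma, all labelled wild type. Each line had 3 control libraries and 3 libraries after 10 Gy, and the design text gives the RNA-seq at 24 h after irradiation, with no separate time for the controls. Each line is a cell line grown alone, with no leukocytes, matrix or blood vessels around it, and the study's methods say that experiments were repeated but not whether the 3 libraries of a group came from separate cultures, so p-values measure only the spread between these libraries. Values are taken to be FPKM, reads per transcript length and per mapped reads of a library, so that levels can be set side by side between genes.

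Chemokines are small secreted proteins that draw white blood cells along a gradient. CXCL1, CXCL2, CXCL3, CXCL5, CXCL6 and CXCL8 (interleukin-8) attract neutrophils through the receptor CXCR2, and CXCL6 and CXCL8 also through CXCR1. CCL2 attracts monocytes through CCR2, CCL5 attracts monocytes and T cells, CCL20 attracts dendritic cells and T helper cells through CCR6, and CX3CL1 (fractalkine) is made as a membrane protein that binds CX3CR1. In airway epithelium these genes are classical targets of NF-kB and AP-1 downstream of interleukin-1 and tumour necrosis factor, and many of their mRNAs are short-lived because of AU-rich elements.

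The 6 CXC members lie in 1 cluster on chromosome 4 (GRCh38, GENCODE 29). In order they are CXCL8 (73740506 to 73743716, plus strand), CXCL6 (73836497 to 73849064, plus), CXCL1 (73869393 to 73871242, plus), CXCL5 (73995642 to 73998779, minus), CXCL3 (74036589 to 74038807, minus) and CXCL2 (74097035 to 74099293, minus). The gaps from 1 member to the next run from 20.3 kb, between CXCL6 and CXCL1, to 124 kb, between CXCL1 and CXCL5. Other genes between the members were not considered. CCL2 (34255218 to 34257203, plus) and CCL5 (35871491 to 35880793, minus) are on chromosome 17, 1614 kb apart, CCL20 (227805739 to 227817564, plus) is on chromosome 2 and CX3CL1 (57372458 to 57385048, plus) is on chromosome 16.

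The 150 bases before the RefSeq start of each CXC gene (GRCh38.p14, written 5′ to 3′ on the gene's strand) are shown because all 6 hold the same 9 letters at nearly the same place while their mRNA levels and responses differ. Capitals mark GGAATTTCC, an NF-kB site of the form known from the CXCL8 promoter, and TGANTCA, the AP-1 motif. Both strands were searched.
CXCL1 (chr4:73869243-73869392, plus strand): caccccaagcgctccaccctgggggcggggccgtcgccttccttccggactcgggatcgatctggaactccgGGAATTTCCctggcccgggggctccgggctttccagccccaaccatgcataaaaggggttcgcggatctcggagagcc
CXCL2 (chr4:74099196-74099345, minus strand): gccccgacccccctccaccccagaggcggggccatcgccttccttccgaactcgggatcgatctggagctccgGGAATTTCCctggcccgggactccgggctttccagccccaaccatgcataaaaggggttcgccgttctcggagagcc
CXCL3 (chr4:74038690-74038839, minus strand): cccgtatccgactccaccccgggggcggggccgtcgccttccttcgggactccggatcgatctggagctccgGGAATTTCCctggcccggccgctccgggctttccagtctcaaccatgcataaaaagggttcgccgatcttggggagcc
CXCL5 (chr4:73998678-73998827, minus strand): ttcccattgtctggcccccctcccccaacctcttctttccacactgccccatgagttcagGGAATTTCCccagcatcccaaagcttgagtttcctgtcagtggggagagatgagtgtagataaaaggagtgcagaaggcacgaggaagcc
CXCL6 (chr4:73836528-73836677, plus strand): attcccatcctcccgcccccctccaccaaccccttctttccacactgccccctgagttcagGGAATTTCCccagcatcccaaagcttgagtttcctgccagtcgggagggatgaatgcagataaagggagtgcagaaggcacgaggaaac
CXCL8 (chr4:73740419-73740568, plus strand): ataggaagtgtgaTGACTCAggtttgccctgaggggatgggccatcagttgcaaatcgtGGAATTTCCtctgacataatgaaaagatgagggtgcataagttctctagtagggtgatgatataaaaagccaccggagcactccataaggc

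GGAATTTCC began between 91 and 77 bases before the start in all 6 CXC genes, and 0.461% of the 35116 RefSeq promoters of 300 bases (250 before to 50 after the start) held it on either strand. The longer NF-kB consensus overlapped these letters in CXCL1, CXCL2, CXCL3, CXCL5 and CXCL6, was not matched in CXCL8 and was matched in CCL20 at other letters, and 11.3% of all promoters held it. TGANTCA was matched in CXCL8 alone among the 7 members with a promoter entry, against 7.71% of all promoters. At the best offset and without gaps, the printed windows of CXCL5 and CXCL6 had 90.6% identical bases, those of CXCL1 and CXCL3 86.0%, and those of CXCL1 and CXCL2 67.1%, whereas CXCL8 had 29.3% in common with CXCL1. A match describes letters in this window and is no evidence that a factor binds there. CCL2, CCL5 and CX3CL1 had no entry.

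The libraries of a line had similar totals of FPKM, between 484169 and 501302 in A549, 493839 and 529936 in BEAS-2B, and 461255 and 481987 in H446. The files hold no counts, so reads per library and counting intervals are not given. Over 20 p53 targets, used as a check of irradiation, the median log2 difference from the control mean was 1.08, 1.03 and 0.936 in the 3 irradiated A549 libraries and between -0.043 and 0.026 in H446. In BEAS-2B it was 0.856, 0.056 and 0.987, so that the library labelled 10 Gy replicate 2 stood apart from the others, and BEAS-2B results are given with and without it. That library was singled out by an outcome of irradiation. Adjusted p-values without it are therefore no independent test of a response to 10 Gy. The deviation of that library also ran with the GC content of transcripts (Spearman's correlation across genes 0.705), as did others of BEAS-2B (-0.629 to 0.449). The labelled cell types were checked against markers. Keratins KRT8 and KRT18 were abundant in all lines, while the leukocyte markers PTPRC, CSF3R and MS4A1 had group means of at most 0.06 FPKM. Of the other leukocyte markers, CD68 had group means of 8.56 to 30.95 FPKM, CD14 of 8.13 and 8.36 in BEAS-2B and at most 1.02 elsewhere, and ITGAM and LYZ of at most 1.38. In H446 the neuroendocrine markers CHGA and NCAM1 had control means of 0.02 and 0.00 FPKM, and UCHL1, another such marker, stood at 22.89 FPKM against 513.74 in A549 and 269.64 in BEAS-2B. In BEAS-2B CDH1 stood at 0.46 and KRT5 at 0.01 FPKM in the controls.

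Without irradiation, the 3 lines made very different sets of chemokine mRNA. A549 cells carried CXCL1, CXCL5 and CXCL8 among their most abundant transcripts, with CCL2, CXCL3, CXCL2 and CCL20 behind them. BEAS-2B cells expressed mainly CCL2, CXCL8 and CXCL1. H446 cells expressed mainly CCL5, with little CXCL8, CXCL2 and CXCL1 and almost no CCL2 or CXCL5. In controls, 7 of 9 tested members differed between BEAS-2B and H446 (81.1% of 13071 genes did), 9 of 9 between BEAS-2B and A549 (83.8%) and 8 of 9 between A549 and H446 (83.2%), by limma with Benjamini-Hochberg adjustment. These shares are close to those of all genes, members were admitted by passing the limit on low values (1 FPKM in at least 3 of the 6 libraries) in any line, and the 3 comparisons share control libraries.

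**Figure D1:**
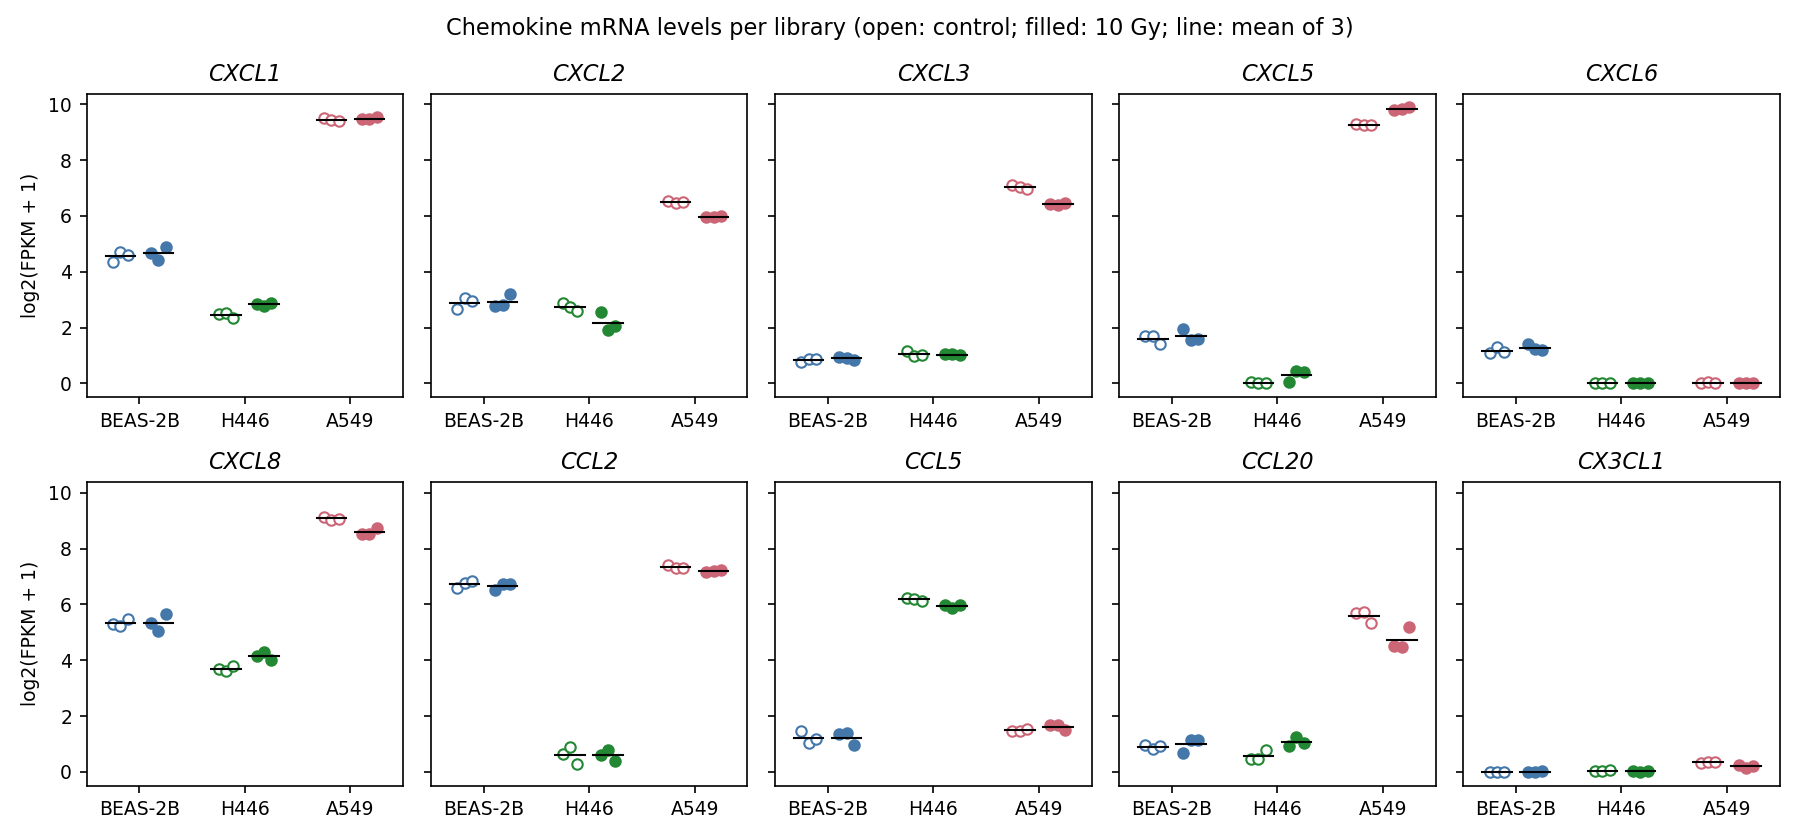
Level of each chemokine mRNA in every library, as log2(FPKM + 1), by cell line, with open points for control libraries, filled points for libraries after 10 Gy and a black line at the mean of 3. CXCL1, CXCL2, CXCL3, CXCL5, CXCL8 and CCL20 were highest in A549, CCL5 was highest in H446, and CX3CL1 was near 0 in every library.

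CXCL1 stood at 718.3, 686.76 and 666.62 FPKM in the A549 controls, at 19.32, 25.36 and 23.09 in BEAS-2B and at 4.6, 4.7 and 4.02 in H446. The lines did not overlap, and the A549 mean ranked 100 among all genes of that line. The log2(FPKM + 1) difference was 6.99 ± 0.10 (SE) between A549 and H446 and 2.11 ± 0.10 between BEAS-2B and H446 (limma adjusted p = 2.6e-21 and 2.0e-13).

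CXCL8 stood at 566.15, 522.29 and 532.08 FPKM in the A549 controls, at 38.52, 36.67 and 43.78 in BEAS-2B and at 11.85, 11.36 and 12.79 in H446. The order of the lines was that of CXCL1, again with no overlap. CXCL8 was 5.38 ± 0.11 higher on the log2 scale in A549 than in H446 and 1.64 ± 0.11 higher in BEAS-2B than in H446 (limma adjusted p = 1.5e-18 and 1.3e-10).

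CXCL5, whose product also acts on CXCR2, had the widest span. Its control values were 623.16, 603.75 and 614.86 FPKM in A549, 2.26, 2.28 and 1.63 in BEAS-2B and 0.03, 0 and 0 in H446. With H446 listed at or near 0, no fold against it is given.

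CXCL3 and CXCL2, close relatives of CXCL1, were high in A549 only. CXCL3 measured 135.83, 131.64 and 124.54 FPKM in the A549 controls, 0.72, 0.82 and 0.85 in BEAS-2B and 1.23, 0.96 and 1 in H446. CXCL2 measured 90.49, 87.35 and 89.3 FPKM in A549, 5.28, 7.4 and 6.66 in BEAS-2B and 6.29, 5.65 and 5.02 in H446. For CXCL2, BEAS-2B and H446 overlapped and their difference of 0.16 ± 0.14 did not pass the test (limma adjusted p = 0.31). For CXCL3, H446 was above BEAS-2B by 0.20 on the log2 scale (log2 difference, BEAS-2B minus H446, -0.20 ± 0.06, limma adjusted p = 0.0063), and this call was lost when 1 library was left out (adjusted p up to 0.051). Of the stretches of 50 bases in the CXCL2 transcript, 9.24% also occur in CXCL1 or CXCL3, against 5.73% for CXCL1 and 5.26% for CXCL3, so reads of 50 bases could be exchanged among these genes.

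CXCL6, by contrast, was measured above 1 FPKM in BEAS-2B alone. Its BEAS-2B control values were 1.13, 1.45 and 1.18 FPKM, against 0, 0.04 and 0 in A549, and it was listed at 0 in all H446 libraries. CXCL6 thus differed from CXCL5, with which it shares most of its proximal promoter letters as printed above.

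CCL2, the monocyte attractant, was high in both A549 and BEAS-2B. It measured 169.78, 158.16 and 157.3 FPKM in the A549 controls, 94.76, 107.04 and 112 in BEAS-2B and 0.54, 0.86 and 0.21 in H446. BEAS-2B was below A549 (log2 difference -0.63 ± 0.12, limma adjusted p = 9.6e-05) and above H446 by 6.12 ± 0.12 (adjusted p = 5.6e-19). Of the BEAS-2B control libraries, CCL2 was the most abundant member in each.

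CCL5 ran the other way. It measured 74.8, 72.06 and 69.08 FPKM in the H446 controls, 1.79, 1.78 and 1.88 in A549 and 1.78, 1.06 and 1.24 in BEAS-2B. H446 was above A549 by a wide margin (log2 difference, A549 minus H446, -4.69 ± 0.11, limma adjusted p = 4.5e-18). BEAS-2B was below A549 by a small one (-0.27 ± 0.11, adjusted p = 0.028), a call lost without 1 or another library (adjusted p up to 0.16), and 17.5% of the 50-base stretches of CCL5 occur in other transcripts.

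CCL20 measured 51.12, 51.45 and 39.61 FPKM in the A549 controls, 0.96, 0.77 and 0.88 in BEAS-2B and 0.38, 0.37 and 0.73 in H446. CCL20 passed the limit on low values in A549 alone, so it was admitted to this fit by the line where it was high. On the log2 scale A549 was 5.02 ± 0.17 above H446 (limma adjusted p = 1.2e-15), whereas the difference of 0.33 ± 0.17 between BEAS-2B and H446 did not pass the test (adjusted p = 0.073). CX3CL1 was between 0.25 and 0.27 FPKM in the A549 controls, at most 0.04 in H446 and listed at 0 in BEAS-2B, and was under the limit on low values in every line.

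After 10 Gy, the chemokines of A549 cells moved in opposite directions. CXCL5 rose, CXCL2, CXCL3, CXCL8 and CCL20 fell, CCL2 fell slightly, and CXCL1, the most abundant of them in controls, did not pass the test. Of 8 members tested, 1 was higher and 5 were lower, where 25.3% of the 11993 genes tested were higher and 26.4% lower (51.7% in either direction). The control and irradiated libraries did not overlap for 6 of the 8, against 58.5% of all genes tested. The median log2 fold change of the 8 was -0.31, and that of all genes tested was near 0 (-0.004). With 3 against 3 libraries an exact permutation test of 1 gene cannot give a two-sided p below 0.10, so calls rest on limma.

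**Figure D2:**
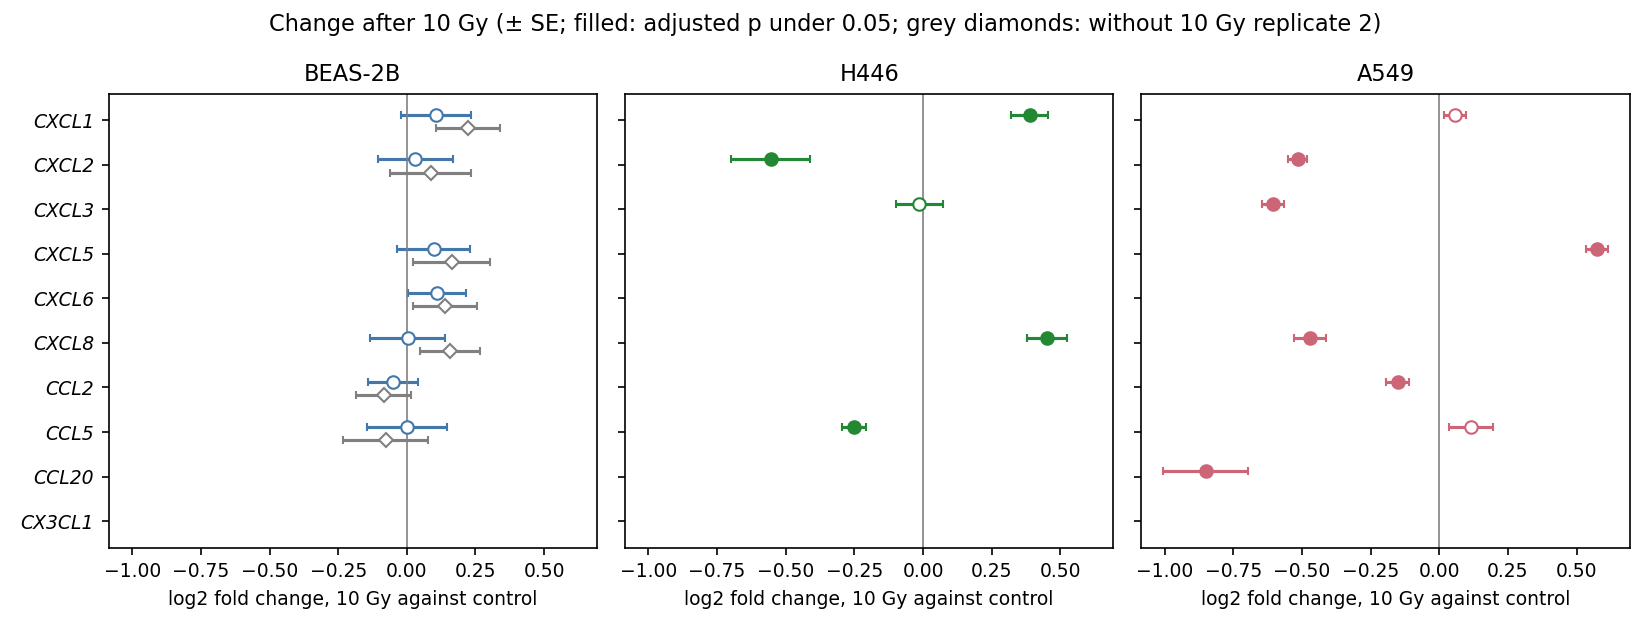
Log2 fold change of each tested chemokine after 10 Gy against control, per cell line, with bars of 1 SE, filled points for an adjusted p under 0.05 and grey diamonds for BEAS-2B without 10 Gy replicate 2. In A549 CXCL5 was at 0.57 while CXCL2, CXCL3, CXCL8 and CCL20 lay between -0.85 and -0.47, in H446 CXCL1 and CXCL8 were above 0 and CXCL2 and CCL5 below, and no BEAS-2B point was filled. Members with no point were under the limit on low values.

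CXCL5 was at 623.16, 603.75 and 614.86 FPKM in the A549 controls and at 880.04, 914.67 and 947.92 after irradiation. Every irradiated library was above every control. The log2 fold change of CXCL5 was 0.57 ± 0.04 (SE, n = 3 against 3, limma adjusted p = 3.0e-07), and the gene's mean moved from rank 113 to rank 80 in A549.

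CXCL8 fell from 566.15, 522.29 and 532.08 FPKM to 369.62, 370.61 and 430.9 in A549 (log2 fold change -0.47 ± 0.06, limma adjusted p = 3.4e-05). The highest irradiated library stayed below the lowest control. CXCL3 fell from 135.83, 131.64 and 124.54 to 85.89, 83.32 and 87.36 FPKM (-0.61 ± 0.04, adjusted p = 2.5e-07). CXCL2 fell from 90.49, 87.35 and 89.3 to 61.26, 61.47 and 63.16 FPKM (-0.52 ± 0.04, adjusted p = 3.0e-07). For both, the groups were far apart compared with the spread within them, with SDs of 1.04 to 5.71 FPKM.

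CXCL1 stayed within its spread, at 718.3, 686.76 and 666.62 FPKM in the A549 controls and 711.77, 705.27 and 735.82 after 10 Gy. The groups overlapped, and the log2 fold change of CXCL1 was 0.06 ± 0.04 (limma adjusted p = 0.26). CXCL1 carries 3 copies of the AU-rich nonamer TTATTTATT in its longest coding transcript, CXCL2 carries 5, CXCL3, CXCL8 and CX3CL1 carry 1 each, and CXCL5, CXCL6, CCL2, CCL5 and CCL20 carry none (8.73% of 19669 genes carry any).

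Among the CC chemokines of A549, CCL20 fell from 51.12, 51.45 and 39.61 FPKM to 22.05, 21.47 and 35.51 (log2 fold change -0.85 ± 0.15, limma adjusted p = 0.00065). The groups did not overlap, but the third control was well below the other controls and the third irradiated library well above the other irradiated ones. CCL2 fell from 169.78, 158.16 and 157.3 to 141.05, 144.65 and 150.52 FPKM (-0.15 ± 0.04, adjusted p = 0.0083). The CCL2 call was lost without control replicate 1 (adjusted p = 0.054) and with the spread shared over all 18 libraries (adjusted p = 0.34, in a fit that called 41.1% of genes). CCL5 stayed low, with 1.79, 1.78 and 1.88 FPKM in controls and 2.18, 2.17 and 1.81 after 10 Gy, and did not pass the test (0.11 ± 0.08, adjusted p = 0.25).

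CXCL6 and CX3CL1 were under the limit on low values in A549. CX3CL1 measured 0.25, 0.27 and 0.27 FPKM in controls and 0.19, 0.1 and 0.15 after irradiation, with no overlap (exact permutation p = 0.10, two-sided, the smallest possible). With no limit on low values its log2 fold change was -0.14 ± 0.04 (limma adjusted p = 0.021). CXCL6 was listed at 0 in all A549 libraries except for 0.04 FPKM in 1 control.

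The summed FPKM of the 6 CXC genes overlapped between control and irradiated A549 libraries, whereas its make-up differed. The sum was 2064 ± 60.3 FPKM (SD, n = 3) in controls and 2170 ± 83.8 after 10 Gy, with overlapping ranges of 2027 to 2134 and 2109 to 2265. The share of CXCL5 in that sum went from 29.7% ± 0.56 to 42.1% ± 0.60, and the share of CXCL8 from 26.2% ± 0.42 to 17.97% ± 0.92. CXCL1 held 33.4% ± 0.50 and 33.1% ± 0.64. CXCL5 was thus second to CXCL1 in every A549 control and above it in every irradiated library.

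**Figure D3:**
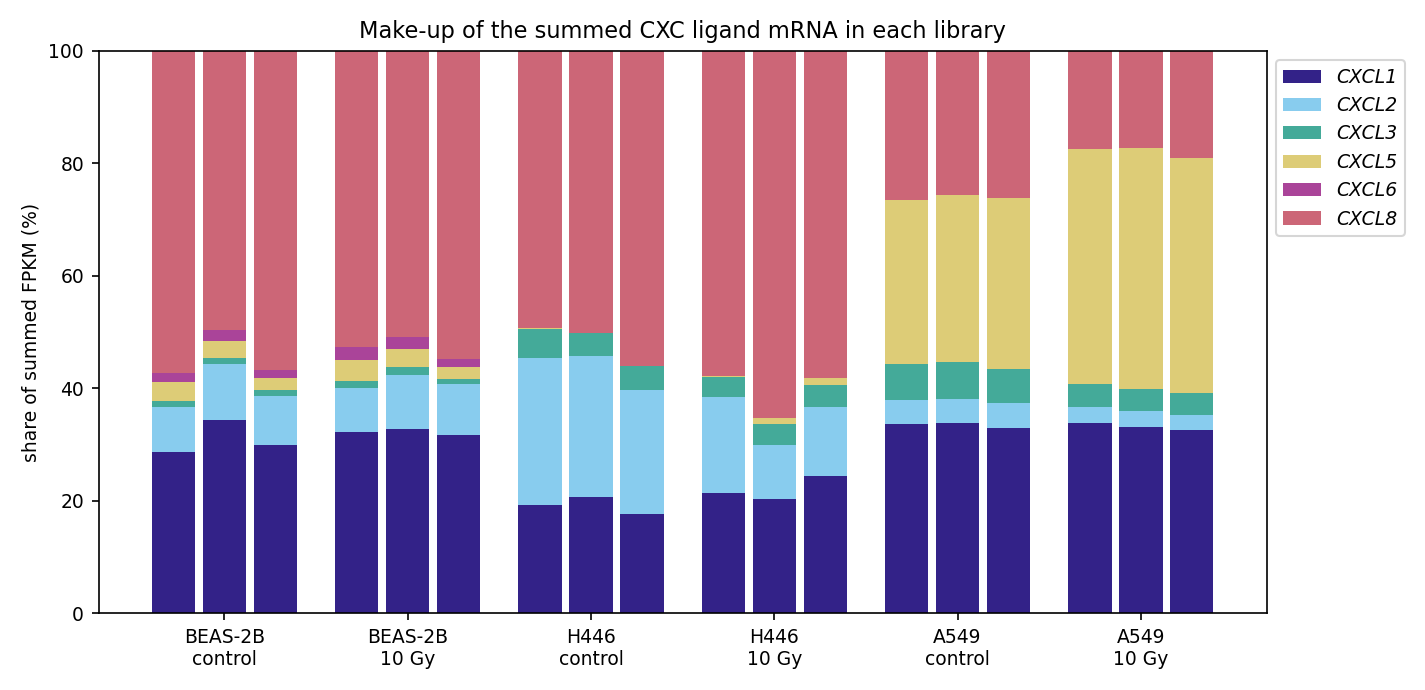
Share of each CXC ligand, in percent, in the summed FPKM of CXCL1, CXCL2, CXCL3, CXCL5, CXCL6 and CXCL8, with 1 bar per library and 3 libraries per group. In A549 the CXCL5 share stood between 29.2% and 30.3% in controls and between 41.7% and 42.8% after 10 Gy, while the CXCL8 share of all BEAS-2B libraries lay between 49.6% and 57.3%.

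In H446 cells, CXCL1 and CXCL8 rose and CXCL2 and CCL5 fell after 10 Gy, while CXCL3 did not pass the test. Of 5 members tested, 2 were higher and 2 lower, where 14.8% of 11479 genes were higher and 23.6% lower (38.4% in either direction). The groups did not overlap for 4 of the 5, against 50.3% of all genes tested. The median log2 fold change of the 5 was -0.01, beside -0.03 over all genes tested. Over all genes, 1698 were called higher and 2709 lower, but 2171 and 2183 after quantile normalization and 1814 and 1703 with a trend on GC content removed. In this line the tilt of gene levels with the GC content of transcripts differed between groups: Spearman's correlation across genes of a library's deviation with GC content was 0.347 to 0.459 in controls and -0.496 to -0.106 after 10 Gy. The values with that trend removed are given beside each of the 5 members tested, and changes of other genes in H446 are printed without that correction.

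CXCL8 was at 11.85, 11.36 and 12.79 FPKM in the H446 controls and at 16.67, 18.66 and 15.13 after 10 Gy. All irradiated libraries were above all controls, and the log2 fold change of CXCL8 was 0.45 ± 0.07 (limma adjusted p = 0.00095), or 0.36 with the GC trend removed. CXCL1 was at 4.6, 4.7 and 4.02 FPKM in controls and at 6.17, 5.8 and 6.36 after 10 Gy. It too showed no overlap, with a log2 fold change of 0.39 ± 0.07 (adjusted p = 0.0018), or 0.38 with the trend removed.

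CXCL2 was at 6.29, 5.65 and 5.02 FPKM in the H446 controls and at 4.89, 2.74 and 3.18 after 10 Gy. The first irradiated library lay just below the lowest control and the others well below. The log2 fold change of CXCL2 was -0.55 ± 0.14 (limma adjusted p = 0.012), or -0.56 with the GC trend removed, and its adjusted p was 0.058 with no limit on low values. CXCL2 thus moved against CXCL1 and CXCL8 in H446, whereas CXCL3, at 1.23, 0.96 and 1 FPKM in controls and 1.05, 1.06 and 1.01 after 10 Gy, had overlapping groups (-0.01 ± 0.09, adjusted p = 0.91, or 0.03 with the trend removed).

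CCL5, the main chemokine mRNA of H446, was at 74.8, 72.06 and 69.08 FPKM in controls and at 61.38, 57.02 and 62.52 after 10 Gy. The groups did not overlap. The log2 fold change of CCL5 was -0.25 ± 0.04 (limma adjusted p = 0.0018), or -0.17 with the GC trend removed, and the adjusted p was 0.098 with the spread shared over all 18 libraries, in a fit that called 24.2% of genes.

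The other 5 members were under the limit on low values in H446. CCL20 was at 0.38, 0.37 and 0.73 FPKM in controls and at 0.9, 1.37 and 1.04 after irradiation, with no overlap (exact permutation p = 0.10, two-sided). With no limit on low values its log2 fold change was 0.50 ± 0.12 (limma adjusted p = 0.025), in a fit that called 21.8% of genes but not CXCL2. In the fit of all 18 libraries the adjusted p of CCL20 was 0.0365, with 24.2% of genes called. CCL20 entered that fit only through its level in A549. CXCL5 was at 0.03, 0 and 0 FPKM in controls and at 0.03, 0.35 and 0.31 after 10 Gy, so the groups touched. CCL2 overlapped between groups, CX3CL1 stayed at or below 0.04 FPKM and CXCL6 was listed at 0 throughout.

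The summed CXC level of H446 was 23.2 ± 0.73 FPKM (SD, n = 3) in controls and 27.8 ± 1.57 after 10 Gy. CXCL2 made up 24.4% ± 2.16 of it in controls and 12.9% ± 3.75 after irradiation, while the CXCL8 share went from 51.8% ± 3.64 to 60.4% ± 4.15.

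In BEAS-2B cells no member passed the test. Of 7 members tested, 0 were called, as were 0 of 11734 genes in all (0%), although 1446 genes had an unadjusted p under 0.05. No member had groups that did not overlap, against 16.4% of genes tested. The median log2 fold change of the 7 was 0.03, and that of all genes tested was 0.002. Without 10 Gy replicate 2, limma called 233 of 11680 genes (1.99%) and again 0 of the 7, with a median of 0.14.

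CXCL8 was at 38.52, 36.67 and 43.78 FPKM in the BEAS-2B controls and at 39.55, 31.75 and 49.51 after 10 Gy, the lowest and the highest of the 6 libraries both being irradiated. Its log2 fold change was 0.00 ± 0.14 with all libraries and 0.16 ± 0.11 without replicate 2. CXCL1 was at 19.32, 25.36 and 23.09 FPKM in controls and at 24.2, 20.44 and 28.7 after 10 Gy. The groups overlapped, with log2 fold changes of 0.10 ± 0.13 and 0.22 ± 0.12 without replicate 2.

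CCL2, the most abundant member in BEAS-2B, was at 94.76, 107.04 and 112 FPKM in controls and at 90.9, 106.05 and 106.38 after 10 Gy (log2 fold change -0.05 ± 0.09, limma adjusted p = 0.83, or -0.08 without replicate 2). CXCL2, CXCL5, CXCL6 and CCL5 lay between 0.93 and 8.1 FPKM in all BEAS-2B libraries and had log2 fold changes from 0.00 to 0.11. Without replicate 2 these were 0.09 for CXCL2, 0.16 for CXCL5, 0.14 for CXCL6 and -0.08 for CCL5. CXCL3 and CCL20 were at or below 1.22 FPKM and under the limit on low values, as was CX3CL1, which was listed at 0 in 5 of the 6 libraries.

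**Figure D4:**
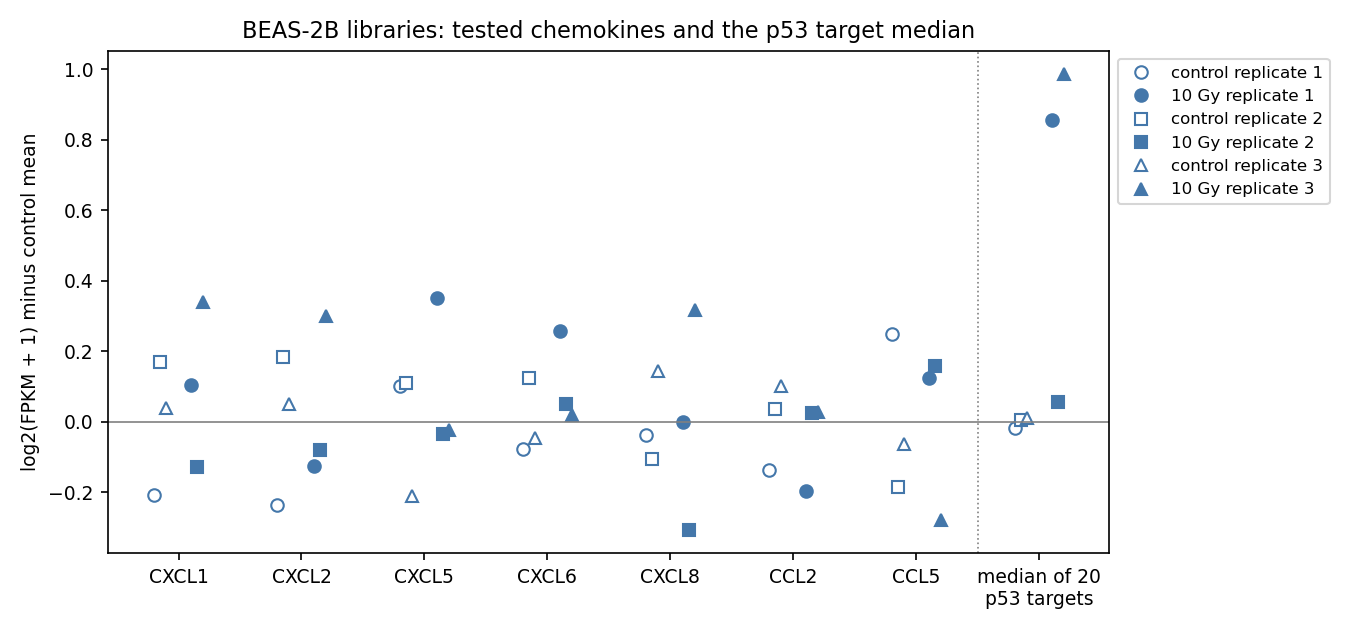
Difference of each BEAS-2B library from the control mean, in log2(FPKM + 1), for the 7 tested chemokines and for the median of 20 p53 targets, with open symbols for controls, filled symbols for 10 Gy and 1 symbol shape per replicate number. Irradiated replicates 1 and 3 stood at 0.856 and 0.987 for the p53 targets and replicate 2 at 0.056, while for each chemokine the open and filled symbols overlapped.

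The response itself was then compared between lines, in 1 fit of all 18 libraries. Between BEAS-2B and A549, 5 of 9 members differed (30.6% of 13071 genes did); between A549 and H446, 3 of 9 (34.6%); and between BEAS-2B and H446, 1 of 9 (22.7%). Each pair of comparisons shares libraries. Members enter this fit once they pass the limit on low values in any line, and log2(FPKM + 1) compresses changes of members that are low in the other line, so these counts are no measure of how often responses differ. CCL20 was under the limit in BEAS-2B and H446, CXCL3 in BEAS-2B, CXCL5 in H446, CCL2 in H446 and CXCL6 in A549 and H446.

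The CXCL8 response differed between A549, where it fell, and H446, where it rose, by -0.92 ± 0.16 on the log2 scale (A549 minus H446, limma adjusted p = 0.0003). The CXCL8 difference was 0.47 ± 0.16 for BEAS-2B minus A549 (adjusted p = 0.033) and -0.45 ± 0.16 for BEAS-2B minus H446, which did not pass the test (adjusted p = 0.053). Without BEAS-2B 10 Gy replicate 2 the CXCL8 differences were 0.63 and -0.29 (adjusted p = 0.0018 and 0.13). For CCL20, which both other lines held at or below 1.37 FPKM, the difference was -1.35 ± 0.23 for A549 minus H446 (adjusted p = 0.00028) and 0.93 ± 0.23 for BEAS-2B minus A549 (adjusted p = 0.006). With a pseudocount of 0.1, which compresses low values less, the CCL20 difference for A549 minus H446 was -1.93 ± 0.36 (adjusted p = 0.00067), and that for BEAS-2B minus A549 kept its direction with an adjusted p of 0.047.

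The CXCL3 response differed by -0.59 ± 0.09 for A549 minus H446 and by 0.66 ± 0.09 for BEAS-2B minus A549 (limma adjusted p = 5.7e-05 and 2.5e-05), with CXCL3 at or below 1.23 FPKM in both other lines. With a pseudocount of 0.1 these CXCL3 differences were -0.59 ± 0.13 and 0.71 ± 0.13 (adjusted p = 0.0023 and 0.00066). CXCL2 fell in both cancer lines and differed between them by 0.04 ± 0.20 (adjusted p = 0.90). Against BEAS-2B, the CXCL2 response differed by 0.59 ± 0.20 for H446 and 0.55 ± 0.20 for A549 (adjusted p = 0.039 and 0.042). The CXCL2 call against H446 was lost with the GC trend removed and without 1 or another library (adjusted p up to 0.12). The CXCL5 response was -0.48 ± 0.15 for BEAS-2B minus A549 (adjusted p = 0.023), and -0.41 with an adjusted p of 0.053 without BEAS-2B 10 Gy replicate 2. With a pseudocount of 0.1 the CXCL5 difference was -0.44 ± 0.44 (adjusted p = 0.49). CXCL2, CXCL3, CXCL8 and CCL20 kept their calls between BEAS-2B and A549 without that library (adjusted p = 0.035, 4.8e-05, 0.0018 and 0.014, with 30% of genes called), but without other libraries the CXCL2 call (adjusted p up to 0.12) and the CXCL8 call (up to 0.076) were lost.

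Responses of CXCL1, CXCL6, CCL2 and CCL5 did not pass the test between any pair of lines in the fit of all 18 libraries. For CXCL1, A549 minus H446 was -0.33 ± 0.14 (limma adjusted p = 0.067), and its adjusted p was 0.026 without BEAS-2B 10 Gy replicate 2, which enters only through the shared spread (37.9% of genes called then). In a fit of the 12 A549 and H446 libraries alone, added after seeing the data, the differences of CXCL1 (-0.33 ± 0.07) and CCL5 (0.37 ± 0.08) passed the test (adjusted p = 0.0012 and 0.0018). For BEAS-2B minus H446, CXCL1 and CCL5 passed it without BEAS-2B 10 Gy replicate 3 (-0.40 and 0.39, adjusted p = 0.015 and 0.025). CX3CL1 was not tested.

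The changes were then set against the place of each gene in the chromosome 4 cluster. In A549, CXCL5 rose while CXCL3, its neighbour 37.8 kb away on the same strand, fell, and CXCL8 and CXCL2 fell at the outer ends of the cluster. In H446, the log2 fold changes in order of position were 0.45 for CXCL8, 0.39 for CXCL1, -0.01 for CXCL3 and -0.55 for CXCL2, and with the GC trend removed 0.36, 0.38, 0.03 and -0.56. CXCL6 and CXCL5, which lie between these genes, were under the limit on low values there and are left out. In BEAS-2B the values were 0.00 for CXCL8, 0.11 for CXCL6, 0.10 for CXCL1, 0.10 for CXCL5 and 0.03 for CXCL2. A trend with position was not tested.

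**Figure D5:**
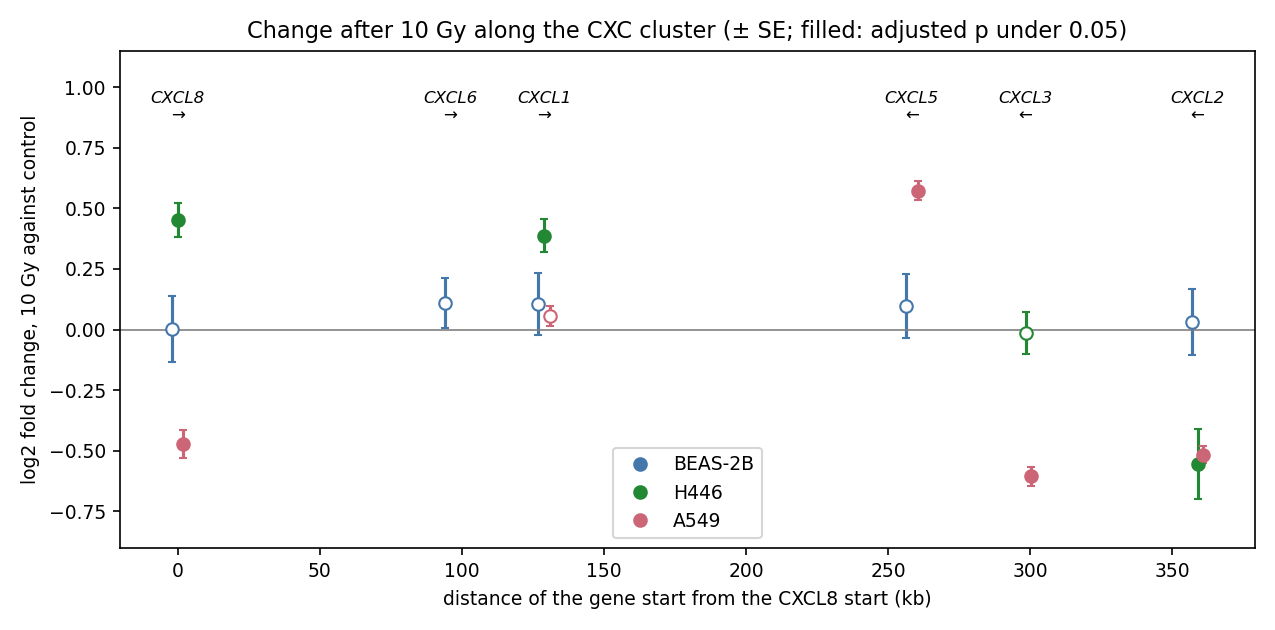
Log2 fold change after 10 Gy, with bars of 1 SE, of the CXC members tested in each line, against the distance of the gene's start from the CXCL8 start in kb, with arrows for the direction of transcription and filled points for an adjusted p under 0.05. At 258.3 kb CXCL5 stood at 0.57 in A549, and at 298.3 kb CXCL3 stood at -0.61.

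The upstream cytokines and regulators of these genes were then read from lists of known genes. Of 29 transcription factors and NF-kB or AP-1 regulators known at chemokine promoters, 6 rose and 16 fell in A549 (median log2 fold change -0.24), 6 rose and 9 fell in H446 (-0.04), and 0 were called in BEAS-2B (0.17). Of all genes tested, 25.3% rose and 26.4% fell in A549 and 14.8% and 23.6% in H446, with medians of -0.004, -0.03 and, in BEAS-2B, 0.002. Without BEAS-2B 10 Gy replicate 2, 6 of the 29 rose in that line and 0 fell, where 1.99% of all genes were called.

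In A549, ATF3, FOSL1 and JUNB had the largest changes among called genes of that list. ATF3, a stress-induced factor, was at 27.06, 27 and 28.69 FPKM in controls and at 13.33, 12.82 and 11.96 after 10 Gy (log2 fold change -1.06 ± 0.05, limma adjusted p = 1.5e-08). FOSL1, an AP-1 subunit, fell by 1.02 on the log2 scale and JUNB, another, by 0.99 (adjusted p = 2.5e-08 and 6.6e-08). The values of the 2 groups did not overlap for any of them. NFKBIA, which holds NF-kB in the cytoplasm and is itself an NF-kB target, rose by 0.23 ± 0.04 (adjusted p = 0.00096), and TNFAIP3, a feedback inhibitor of NF-kB, did not pass the test (0.07 ± 0.06).

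In BEAS-2B, ATF3 was at 14.3, 16.45 and 17.25 FPKM in controls and at 55.33, 15.04 and 68.19 after 10 Gy. Irradiated replicates 1 and 3 were far above and replicate 2 was within the control range. Without replicate 2, the log2 fold change of ATF3 was 1.88 ± 0.11 (limma adjusted p = 1.0e-05), that of FOS 0.93 ± 0.12 and that of TNFAIP3 0.58 ± 0.12 (adjusted p = 0.0023 and 0.035). With all libraries none of these passed the test, ATF3 standing at 1.23, FOS at 0.68 and TNFAIP3 at 0.37 (adjusted p = 0.29, 0.25 and 0.41). Replicate 2 was singled out by its p53 targets, so the adjusted p-values without it are no independent test of a rise. NFKBIA did not pass the test with or without it (-0.01 ± 0.07 and -0.01 ± 0.08). In those libraries CXCL1 was at 24.2 and 28.7 FPKM and CXCL8 at 39.55 and 49.51, the second of each above all controls and the first within their range.

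In H446, JUND, an AP-1 subunit, fell by 0.51 on the log2 scale and SP1, a general promoter factor, by 0.31, while ATF3 rose by 0.30 (limma adjusted p = 0.00014, 0.00018 and 0.0058). TNFAIP3 rose by 0.28 ± 0.06 (adjusted p = 0.0034), and NFKBIA did not pass the test (-0.09 ± 0.04, adjusted p = 0.11).

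Interleukin-1, the classical inducer of these chemokines, was read in each line. IL1B was at 15.07, 17.51 and 17.17 FPKM in the BEAS-2B controls and at 29.84, 16.05 and 33.42 after 10 Gy. Replicates 1 and 3 were above all controls and replicate 2 was within them. Its log2 fold change was 0.58 ± 0.21 with all libraries (limma adjusted p = 0.31) and 0.89 ± 0.09 without replicate 2 (adjusted p = 0.00061). IL1A in BEAS-2B was at 2.03, 1.55 and 1.81 FPKM in controls and at 2.72, 1.55 and 4.4 after 10 Gy. Its log2 fold change was 0.41 ± 0.22 with all libraries (limma adjusted p = 0.45) and 0.68 ± 0.15 without replicate 2 (adjusted p = 0.048).

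In A549, IL1A fell from 11.14, 11.57 and 11.3 to 4.58, 5.54 and 6.12 FPKM (log2 fold change -0.95 ± 0.08, limma adjusted p = 1.6e-06), and IL1B, between 0.73 and 1.9 FPKM, did not pass the test. In H446, IL1B fell from 14.84, 14.2 and 14.4 to 12.38, 11.24 and 12.05 FPKM (-0.26 ± 0.05, adjusted p = 0.0025), while IL1A did not pass the test. The IL1A response differed by 1.36 ± 0.24 for BEAS-2B minus A549 and by -0.84 ± 0.24 for A549 minus H446 (adjusted p = 0.00041 and 0.012), but did not pass the test for BEAS-2B minus H446 (0.53 ± 0.24, adjusted p = 0.12). The IL1B response differed by 0.85 ± 0.26 for BEAS-2B minus H446 (adjusted p = 0.028) and did not pass the test for BEAS-2B minus A549 (0.27 ± 0.26, adjusted p = 0.47) or A549 minus H446 (0.58 ± 0.26, adjusted p = 0.098). Without BEAS-2B 10 Gy replicate 2, all 3 differences passed the test for both genes: those of IL1A in the same order were 1.63, -0.84 and 0.80 (adjusted p = 1.7e-06, 0.00055 and 0.0037) and those of IL1B 1.16, 0.58 and 0.58 (adjusted p = 0.00021, 0.016 and 0.0093). The whole list of inducing cytokines and their receptors also holds the signalling genes MYD88, IRAK1, IRAK4, TRAF6 and TRAF2. In A549 TRAF2 fell by 0.58 and MYD88 rose by 0.50 (limma adjusted p = 1.5e-05 and 6.3e-05). In H446 IL17RC fell by 0.32 and TRAF2 by 0.31 (adjusted p = 0.0065 and 0.0054). Of that list, 5 rose and 4 fell of 16 tested in A549, 3 rose and 5 fell of 17 in H446, and 0 of 16 were called in BEAS-2B, or 2 risen without replicate 2. Of all genes, 51.7% were called in A549, 38.4% in H446, 0% in BEAS-2B and 1.99% in BEAS-2B without replicate 2.

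Of 12 regulators of chemokine mRNA decay, 1 rose and 3 fell in A549, where 51.7% of all genes were called, and 1 rose and 3 fell in H446, where 38.4% were. In A549, ZC3H12A (regnase-1, an endonuclease for cytokine mRNAs) rose by 0.49 ± 0.04 on the log2 scale, DUSP1 (a phosphatase of p38 and JNK) fell by 0.99 and ZFP36 (tristetraprolin, which binds AU-rich elements) fell by 0.29 (limma adjusted p = 1.4e-06, 8.3e-08 and 0.0023). In H446, ELAVL1, KHSRP and HNRNPD, which bind such elements, fell by 0.21, 0.17 and 0.16 (adjusted p = 0.0070, 0.013 and 0.0052). In BEAS-2B 0 were called, and without replicate 2 ZFP36L2 and DUSP1 rose by 0.63 ± 0.13 and 0.41 ± 0.09 (adjusted p = 0.035 for each, with 1.99% of all genes called). With all libraries their log2 fold changes were 0.51 and 0.35 (adjusted p = 0.25 and 0.24).

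Of genes that cleave chemokines or hold them at the cell surface, 4 of 8 tested rose and 2 fell in A549 (51.7% of all genes called), and 3 of 9 rose and 1 fell in H446 (38.4%). SDC1, a heparan sulphate proteoglycan of epithelium, was at 39.61, 41.53 and 39 FPKM in the A549 controls and at 63.23, 61.45 and 59.62 after 10 Gy (log2 fold change 0.61 ± 0.04, limma adjusted p = 2.5e-07). In H446 SDC1 moved the other way, from 15.94, 16.06 and 16.19 to 10.48, 11.13 and 10.27 FPKM (-0.55 ± 0.05, adjusted p = 1.7e-05). ADAM10, the sheddase that releases CX3CL1 from the membrane, rose in both, by 0.29 ± 0.04 in A549 and 0.27 ± 0.04 in H446.

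Most receptors of chemokines were under the limit on low values. CXCR2, the shared neutrophil receptor, was at most 0.08 FPKM in A549, at most 0.05 in BEAS-2B and listed at 0 in H446. Of 20 receptor genes in the table, 2 were tested in A549, 2 in H446 and 1 in BEAS-2B. CCR7 rose in A549 (0.47 ± 0.08, limma adjusted p = 0.00026) and ACKR3, a scavenging receptor, rose in H446 (0.23 ± 0.05, adjusted p = 0.0042). Of the 21 other chemokine ligands in the table, CCL26, an eosinophil attractant, and CXCL16 rose in A549, by 0.86 ± 0.09 and 0.49 ± 0.08 (adjusted p = 9.7e-06 and 0.00036). These were both of the ligands tested there, and 0 of 3 were called in H446 and in BEAS-2B (of all genes 51.7%, 38.4% and 0%). Without BEAS-2B 10 Gy replicate 2, CCL28, an epithelial chemokine of mucosa, fell by 0.50 in that line (adjusted p = 0.028), 1 of 3 ligands where 1.99% of genes were called, against -0.35 with all libraries (adjusted p = 0.31).

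Markers of other cell types were read beside these results. In A549, the leukocyte markers ITGAM and CD68 rose by 0.46 ± 0.09 and 0.16 ± 0.06 on the log2 scale (limma adjusted p = 0.00089 and 0.036), both of the 2 tested of 7 in the table, and the summed level of all 7 went from 27.4 to 31.1 FPKM in controls to 32.1 to 36.2 after 10 Gy, while the defining markers PTPRC, CSF3R and MS4A1 had group means of at most 0.01 FPKM there. In H446, the 2 neuroendocrine markers tested, UCHL1 and ENO2, fell by 0.53 and 0.42, and 3 of 5 epithelial markers fell (KRT19, KRT7 and KRT18, by 0.20 to 0.32). In A549 the keratin KRT7 fell by 0.71, the cadherin CDH1 rose by 0.49, and the neuroendocrine markers ENO2 and CHGB rose by 0.71 and 0.34. Of the fibroblast and endothelial markers, 1 of 2 tested was called in A549, PDGFRA, which rose by 0.29 (adjusted p = 0.011). In H446, 0 of 4 were called. Of all genes tested, 25.3% rose and 26.4% fell in A549 and 14.8% rose and 23.6% fell in H446. The part of these shifts in the chemokine changes was not tested, and in bulk RNA fewer cells of a kind and less RNA per cell cannot be told apart.

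The genes most like the chemokines across libraries were read as a description, for the 7 members that passed the limit on low values in at least 2 lines, or had the highest mean. Over the 18 libraries, with each line's mean removed, CXCL3 varied most like TNFRSF12A, EIF1 and MUC5AC (Pearson r = 0.969, 0.966 and 0.965 of log2(FPKM + 1)), CXCL8 most like RND3, AK6 and CPEB4 (0.940, 0.939 and 0.931), CXCL5 most like FAT1, METTL8 and RBM12 (0.935, 0.907 and 0.903), and CXCL2 most like MOB3B, CFDP1 and RMDN3 (0.883, 0.849 and 0.848). CXCL1, with TMPRSS3, CSNK1A1 and CAVIN2, reached 0.893, 0.870 and 0.852, CCL5 with KCNAB2 reached 0.801, and CCL2 with GPX7 reached 0.728. No other member was among these nearest genes, of 13092 compared. Removing each line's mean left the difference between its control and irradiated libraries in place. For CXCL3 that log2 difference was -0.61 in A549, 0.05 in BEAS-2B and -0.01 in H446. These r values therefore cannot separate a shared change after irradiation from other shared variation. With the line means left in, the closest gene to CXCL8 was CXCL1 (0.995), where the points share 3 lines with large differences in level.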

How the data were processed

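Poly(A) RNA of BEAS-2B, H446 and A549 cells was sequenced by the authors as single 50-base reads (BGISEQ-500). The authors deposited 1 table of values, which the sources used here do not name and which were taken to be FPKM, since totals differed between libraries. The submitters' processing notes name HISAT2 2.0.4, Bowtie2 2.2.5, RSEM 1.2.12 and hg38, without roles. Depth is unknown, so no counting interval is given. Libraries were grouped by title. In the most alike pair of replicates, 3.22% of the genes above 0 in both had equal values.

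Values were tested as log2(FPKM + 1), which understates changes of low genes. Genes at 1 FPKM or more in 3 or more of the 6 libraries of a line were tested with limma 3.58.1 (lmFit, then eBayes with a trend; R 4.3.3), and p-values were adjusted by Benjamini-Hochberg over all of them, with 0.05 as threshold. Each SE and adjusted p is limma's. Lines were compared in a joint fit of the 18 libraries with 6 group means, which assumes 1 spread for all lines, on genes that passed in any line. Exact permutation tests over libraries were two-sided.

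The members, lists and tests were chosen with earlier results of these data known. All 10 members are named in every line. From other lists up to 3 genes per line are named, with the largest changes among called genes with separate groups (in BEAS-2B without 10 Gy replicate 2), besides IL1A, IL1B, NFKBIA, TNFAIP3 and CXCR2. Nearest genes are the first 3 by Pearson's r. Of 18475 Entrez identifiers, 18181 matched RefSeq. Positions and shared 50-base stretches came from GENCODE 29 on GRCh38, promoters from RefSeq, and GC content was known for 96.6% of genes.

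Alternatives changed the normalization (quantile, equal totals, loess on GC content with span 0.5), the low-value limit (none, or 1 FPKM in all libraries), the pseudocount (0.1), the limma trend, the thresholds (0.01, or a log2 fold change of 1) and the libraries (each omitted once), or added a replicate block. Fits of 12 libraries for a pair of lines were added after seeing the data. So was the BEAS-2B response taken from the joint fit without BEAS-2B 10 Gy replicate 2. Scripts were tested on simulated data. Tables and plots were produced in Python 3.11.15 (pandas 2.3.3, numpy 2.4.6, SciPy 1.17.1, matplotlib 3.10.9).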

Additional observations from a re-analysis of the deposited data

Results flagged for a closer look

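A tested difference in the response to 10 Gy between cell lines drew attention for 5 of the chemokines. For A549 minus H446, the response of CXCL8 differed by -0.92, that of CXCL3 by -0.59 and that of CCL20 by -1.35 on the log2 scale (limma adjusted p = 0.0003, 5.7e-05 and 0.00028). For BEAS-2B minus A549, CXCL2 differed by 0.55, CXCL3 by 0.66, CXCL8 by 0.47, CCL20 by 0.93 and CXCL5 by -0.48 (adjusted p = 0.042, 2.5e-05, 0.033, 0.006 and 0.023). For BEAS-2B minus H446, CXCL2 differed by 0.59 (adjusted p = 0.039). CCL20 was under the limit on low values in BEAS-2B and H446, and CXCL3 in BEAS-2B, so that their comparisons with those lines were admitted through the level in A549. With each library left out in turn, CXCL8 stayed past the threshold between A549 and H446. The highest adjusted p over those fits was 0.076 for CXCL8, 0.062 for CXCL5 and 0.12 for CXCL2 in BEAS-2B minus A549, and 0.12 for CXCL2 in BEAS-2B minus H446. With a pseudocount of 0.1, the adjusted p of CXCL5 in BEAS-2B minus A549 was 0.49.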

How the results depend on the processing

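Calls within lines held in nearly every setting, while differences in response between lines depended on it. With each library left out in turn, the members called numbered 5 to 6 in A549, 4 in H446 and 0 in BEAS-2B. With a log2 fold change of at least 1, 0 remained in H446 and 0 in A549. Over all genes that limit left 20 called in H446 and 107 in A549, and an adjusted p under 0.01 left 2529 in H446. In BEAS-2B, 439 genes were called with the replicate block, 842 in the joint fit, 233 without 10 Gy replicate 2 and 1 with no limit on low values, against 0 in the analysis as reported, and 0 members were called in each of these. Same-numbered libraries of a line correlated between -0.125 and 0.324 in their deviations, so the numbers were not taken as pairs. With the replicate block, 4 members were called in H446 (37.4% of all genes), 6 in A549 (49.2%) and 0 in BEAS-2B (3.74%). In that setting 2 members differed in response between BEAS-2B and H446, 5 between BEAS-2B and A549 and 3 between A549 and H446. Without the block 22.7%, 30.6% and 34.6% of all genes differed, in that order. No block could be fitted to control levels.

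For BEAS-2B minus H446, where 1 response differed, the count was 2 with a pseudocount of 0.1, with 1 FPKM in every library and with equal totals, and 0 with an adjusted p under 0.01, no limit on low values, the GC trend removed or 12 libraries. It was 0 to 3 with a library left out: 0 without BEAS-2B control 1 or 3, H446 control 1 or 2, or H446 10 Gy 2, 2 without BEAS-2B control 2, and 3 without BEAS-2B 10 Gy 3. For BEAS-2B minus A549, where 5 differed, it was 2 with an adjusted p under 0.01, 3 with a pseudocount of 0.1 and 2 with 1 FPKM in every library, and 2 to 5 with a library left out: 2 without BEAS-2B control 1, and 3 without BEAS-2B control 2, BEAS-2B 10 Gy 3, A549 control 1 or 3, or any irradiated A549 library. For A549 minus H446, where 3 differed, it was 1 with 1 FPKM in every library, which left fewer members to test, 6 with 12 libraries, and 3 to 5 with a library left out (5 without BEAS-2B control 1 or BEAS-2B 10 Gy 3). Over all genes 34.6% differed for A549 minus H446, and 37.9% without BEAS-2B 10 Gy replicate 2, so that share moves with the setting too. Counts under the other settings stand without it and are not read as particular to the members. For control levels, 1 FPKM in every library left 2 members for BEAS-2B minus H446, 3 for BEAS-2B minus A549 and 3 for A549 minus H446. Apart from those constructions, the cause was not tested.

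Of the values that changed sign, the response of CXCL5 for A549 minus H446 was -0.83 with a pseudocount of 0.1, where H446 controls are listed at or near 0. Quantile normalization gave 0.04 for CXCL3 in H446, -0.02 for CXCL1 in A549, -0.01 for CXCL3 in BEAS-2B minus H446 and -0.04 for CXCL2 in A549 minus H446. Removal of the GC trend gave 0.03 for CXCL3 in H446, -0.01 for CXCL3 and 0.04 for CCL2 in BEAS-2B minus H446, and for CXCL6 in A549 minus H446 0.02 in response and -0.05 in control level. With a library left out, BEAS-2B responses ran from -0.01 to 0.22 for CXCL1, -0.10 to 0.12 for CXCL2, -0.03 to 0.16 for CXCL5, -0.15 to 0.16 for CXCL8, -0.12 to 0.03 for CCL2 and -0.09 to 0.14 for CCL5, and CXCL3 in H446 from -0.05 to 0.04. Differences in response ran from -0.19 to 0.12 for CCL2 in BEAS-2B minus H446, -0.07 to 0.17 for CXCL1 and -0.21 to 0.03 for CCL5 in BEAS-2B minus A549, and -0.10 to 0.23 for CXCL2 and -0.30 to 0.01 for CCL2 in A549 minus H446. Among the members' values under all alternatives, 1646 kept direction and side of the threshold, 66 lost it, 24 gained it and 29 changed sign.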
